A study of Mus musculus with 10 samples.

Results

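A set of 9 genes of the interleukin-6 (IL-6) family and its STAT3 feedback was followed in RNA-seq libraries of mouse Ly6G+ cells. They are the ligands Il6, Lif and Osm, the receptor chains Il6ra, Il6st and Osmr, the transcription factor Stat3 and the 2 STAT3-induced genes Socs3 and Pim1. They were chosen by symbol and matched to their Ensembl identifiers, which gave 9 of the 28185 genes in the deposited table. Of these, 8 passed the minimum of 10 normalized counts, taken as a mean of all libraries, and were tested among 11549 genes. Il6, with a mean of 9.64, was not.

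The animals were male C57Bl/6J mice, 12 to 16 weeks old, in which myocardial infarction (MI) was induced by ligation of the left coronary artery. All groups used here carried the infarct. The MI + MSC and Blood + MSC mice also received mesenchymal stromal cells (MSC), the stromal cells that can be cultured from bone marrow. These came from the same inbred strain, and each mouse received 1000000 of them in each of 3 subcutaneous injections soon after ligation. On day 3, Ly6G+ cells were taken with magnetic beads from the digested left ventricle below the ligature (MI and MI + MSC, 3 libraries each) or from cardiac puncture blood (Blood and Blood + MSC, 2 each). The labels do not tie libraries to individual mice, so p-values measure the spread between these libraries.

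Depth differed 57.9-fold, from 148594 reads in MI 13 to 8602711 in Blood + MSC 24. One read was worth 8.40 normalized counts in MI 13 and 7.07 in Blood 21, the other shallow library, against 0.168 to 2.30 in the rest. A count of 3 reads, taken as the limit of detection, was 25.2 normalized counts in MI 13, 21.2 in Blood 21 and 0.505 to 6.89 elsewhere, for counting error only. Ly6g itself, which encodes the antigen used for the selection, had reads in every library. It was at 4.75 to 26.9 normalized counts in the heart and 41.2 to 645 in blood. In MI 13 it had 2 reads (16.8 normalized counts), below the limit of 3 reads. The 11 neutrophil markers summed to 2496 to 13438 normalized counts in the heart and 16403 to 51265 in blood, while 8 cardiomyocyte markers summed to 3138 to 24250 in the heart and 14.3 to 63.6 in blood. The cardiac libraries therefore held RNA of other cells of the heart. Monocyte or macrophage markers were high in both tissues, with sums of 4816 to 19221 in the heart and 11156 to 22666 in blood. C1qa, which is on that list, had 1079 to 2438 normalized counts in the blood libraries. In such bulk samples, fewer cells of a type and less RNA per cell cannot be told apart.

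IL-6 family cytokines act through receptors that share the chain gp130, encoded by Il6st. IL-6 binds its own receptor chain, encoded by Il6ra, which can sit in the membrane of leukocytes and hepatocytes or be shed into plasma, whereas oncostatin M (OSM) and leukaemia inhibitory factor (LIF) pair gp130 with OSMR or LIFR, receptors best known from stromal, endothelial and heart muscle cells. Engaged gp130 activates JAK kinases, which phosphorylate STAT3. STAT3 then switches on SOCS3, which binds gp130 and the kinases and ends the signal, and PIM1, a serine/threonine kinase that favours survival.

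In MI + MSC hearts the STAT3-induced genes Pim1 and Socs3 had higher levels than in MI hearts in every library. The receptor chain Osmr had lower ones in every library. Of all genes tested, 7.05% were higher and 9.6% lower in this way. limma and edgeR called none of the Pim1, Socs3 and Osmr differences after adjustment over all genes. DESeq2 called those of Osmr and Pim1, among 76 genes (0.658%), and limma-voom that of Osmr, among 294 (2.55%). Between heart and blood, Il6st and Osmr were higher in the heart and Il6ra was lower. The short sequences before the start sites of Socs3 and Pim1 are shown because both were higher in every MI + MSC library. They are the 250 bases upstream of the RefSeq start in build GRCm38.p6, at chr11:117969367-117969616 on the minus strand for Socs3 and chr17:29490535-29490784 on the plus strand for Pim1, written 5′ to 3′ with matches to the STAT-type motif TTCNNNGAA in capitals.
Socs3: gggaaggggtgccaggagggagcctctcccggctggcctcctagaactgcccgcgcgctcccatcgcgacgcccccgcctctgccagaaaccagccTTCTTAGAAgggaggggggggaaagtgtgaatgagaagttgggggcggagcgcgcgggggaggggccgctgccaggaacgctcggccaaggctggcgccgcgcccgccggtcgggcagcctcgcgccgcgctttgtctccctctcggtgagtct
Pim1: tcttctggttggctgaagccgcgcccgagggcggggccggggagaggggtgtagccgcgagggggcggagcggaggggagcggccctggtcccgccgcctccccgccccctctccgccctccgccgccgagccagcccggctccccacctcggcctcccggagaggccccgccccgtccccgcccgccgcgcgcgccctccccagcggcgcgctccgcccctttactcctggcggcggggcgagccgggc
The motif reads the same on both strands. It was found once in the Socs3 sequence, as TTCTTAGAA starting at position -154 from the RefSeq start, and not in the Pim1 sequence, nor in that of a second RefSeq start of Pim1. Of the 9 genes, 8 had an entry in the RefSeq table and Osm had none. No match was found in the upstream sequences of Il6, Lif, Il6ra, Il6st, Osmr and Stat3. Of all 32851 RefSeq upstream sequences of this length, 7.02% held the motif. A match is a description of letters and not evidence of binding.

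The ligand Il6, the founding cytokine of the family, was scarce in all groups, with 166 reads over the 10 libraries. It had 0, 10.6 and 15.4 normalized counts in MI 13, 19 and 20, and 10.1, 13.8 and 35.3 in MI + MSC 15, 17 and 18. In blood it had 0 and 1.30 in Blood 21 and 22, from 0 and 2 reads, and 4.2 and 5.72 in Blood + MSC 23 and 24. The cardiac groups overlapped, and the 0 in MI 13 lies below the limit of 25.2 normalized counts that 3 reads mean in that library. Lif, a cytokine that acts through LIFR and gp130, was similarly scarce, with 148 reads in all. It was found at 0, 15.4 and 13.4 normalized counts in MI 13, 19 and 20 and at 21, 20.7 and 27.8 in MI + MSC 15, 17 and 18. The MI + MSC values lay above the MI values, but the log2 fold change of 1.62 (SE 0.82, 95% interval -0.18 to 3.42) was not called (limma, adjusted p = 0.639). It was 0.61 without MI 13, the library in which no Lif read was found. In blood, Lif had 0 and 1.30 normalized counts in Blood 21 and 22 (0 and 2 reads) and 3.41 and 1.68 in Blood + MSC 23 and 24 (13 and 10 reads). Between MI + MSC and Blood + MSC, where both groups had reads in each library, the log2 fold change was 2.48 (SE 0.92) and was not called (limma, adjusted p = 0.0915).

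Osm was the abundant ligand. Oncostatin M is a cytokine made by neutrophils and macrophages. Its gene (chr11:4186420-4191026, GRCm39, plus strand) lies 16531 bases from Lif (chr11:4207557-4222514), on the same strand. Osm had 134, 183 and 224 normalized counts in MI 13, 19 and 20 and 337, 324 and 213 in MI + MSC 15, 17 and 18. In blood it had 247 and 175 in Blood 21 and 22 and 361 and 88.0 in Blood + MSC 23 and 24. Means were 181 ± 45.0 (SD, n = 3) in MI and 291 ± 68.0 (SD, n = 3) in MI + MSC, and MI + MSC 18 lay within the range of MI. The log2 fold change of 0.68 (SE 0.45, 95% interval -0.30 to 1.67) was not called (limma, adjusted p = 0.668). The Blood + MSC libraries lay farther apart than any pair of group means. Per kilobase of exon, the mean level in MI was 79.4 ± 19.8 for Osm and 3.57 ± 3.25 for Il6 (SD, n = 3).

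**Figure D1:**
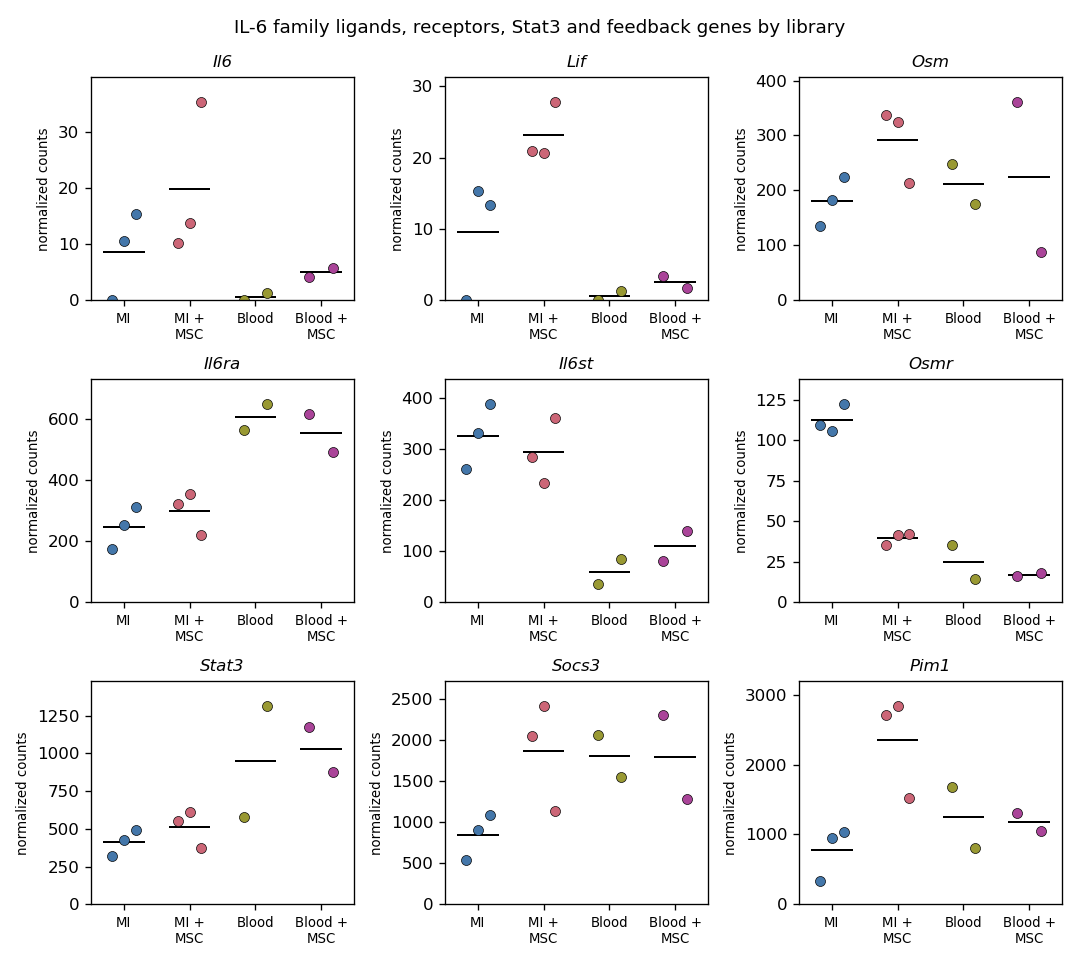
Normalized counts (linear axes from 0) of the 9 genes in each library, by group, with points for the 3 MI, 3 MI + MSC, 2 Blood and 2 Blood + MSC libraries and a line at the group mean. Pim1, Socs3 and Lif lie higher and Osmr lies lower in all 3 MI + MSC libraries than in the 3 MI libraries. Of all genes tested, 7.05% lie higher and 9.6% lower in this way. Il6ra and Il6st separate all cardiac from all blood libraries in opposite directions, where 19.1% of all genes lie higher and 14.0% lower in the heart.

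The receptor genes Il6ra (chr3:89771366-89820719, GRCm39, minus strand), Il6st (chr13:112600604-112646620, plus strand) and Osmr (chr15:6843053-6904450, minus strand) differed between heart and blood. Il6ra, the chain that binds IL-6, had 176, 255 and 312 normalized counts in MI 13, 19 and 20 and 322, 354 and 222 in MI + MSC 15, 17 and 18. It had 565 and 649.7 in Blood 21 and 22 and 617 and 492 in Blood + MSC 23 and 24. Every cardiac library lay below every blood library. Il6st, the shared chain gp130, showed the opposite order, with 261, 331 and 388 normalized counts in MI and 285, 234 and 361 in MI + MSC. In blood it had 35.3 and 84.5 in Blood 21 and 22 (5 and 130 reads) and 81.2 and 140.5 in Blood + MSC 23 and 24. All 6 cardiac libraries lay above all 4 blood libraries, as they did for 19.1% of the genes tested, while 14.0% lay below in all, as Il6ra did. Osmr, the chain that binds oncostatin M together with gp130, had 109, 106 and 122 normalized counts in MI 13, 19 and 20 and 35.1, 41.3 and 42.0 in MI + MSC 15, 17 and 18. It had 35.3 and 14.3 in Blood 21 and 22 (5 and 22 reads) and 16 and 18 in Blood + MSC 23 and 24. Blood 21 therefore fell inside the range of the MI + MSC hearts.

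Comparing MI with Blood asks how Ly6G+ cells of the infarcted heart differ from those still in the circulation. limma called 3 of the 8 genes tested, 2 higher and 1 lower, where 34.7% of all genes were called (21.2% higher and 13.5% lower). Il6st was higher in MI, with a log2 fold change of 2.51 (SE 0.40, 95% interval 1.64 to 3.38, limma adjusted p = 0.00112), and Osmr was higher by 2.21 (SE 0.37, 95% interval 1.41 to 3.02, limma adjusted p = 0.00148). Il6ra was lower, at -1.32 (SE 0.33, 95% interval -2.05 to -0.59, limma adjusted p = 0.0119), and this call was lost when the fit held only these 2 groups (limma adjusted p = 0.0613). Stat3 and Socs3 had log2 fold changes of -1.09 (SE 0.41) and -1.14 (SE 0.49), with no overlap between the groups, as for 23.6% of all genes in that direction, and were not called by limma (adjusted p = 0.0575 and 0.0880). On the recovered reads, edgeR called 5 of the 8 (36.3% of all genes) and DESeq2 called 6 (34.4%). The calls over all genes numbered 2452 higher and 1556 lower, and 3777 and 813 when counts were scaled to library size, under which Il6st, Osmr and Il6ra kept their calls.

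Comparing MI + MSC with Blood + MSC asks the same of treated mice and shares no library with the comparison of MI and Blood. Here Il6st alone was called among the 8, with a log2 fold change of 1.42 (SE 0.40, 95% interval 0.55 to 2.29, limma adjusted p = 0.0359), where 14.1% of all genes were called. That call was lost without any 1 of the 5 libraries compared or without MI 19 (limma adjusted p between 0.0519 and 0.360). Osmr was at 1.12 (SE 0.37), Il6ra at -0.90 (SE 0.33) and Stat3 at -1.01 (SE 0.41), with no overlap between the groups for any of the 3 (33.8% of all genes did not overlap and were higher, and 29.7% lower) and no call (limma adjusted p = 0.0617, 0.0907 and 0.118). Pim1 was at 0.95 (SE 0.55), again without overlap and without a call (limma adjusted p = 0.266). The same 5 genes, Il6ra, Il6st, Osmr, Stat3 and Lif, were called by edgeR, DESeq2 and limma-voom in this comparison, where these tools called 32.7%, 29.0% and 42.3% of all genes. Over all genes, limma called 951 higher and 676 lower, against 884 and 953 with TMM scaling.

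**Figure D2:**
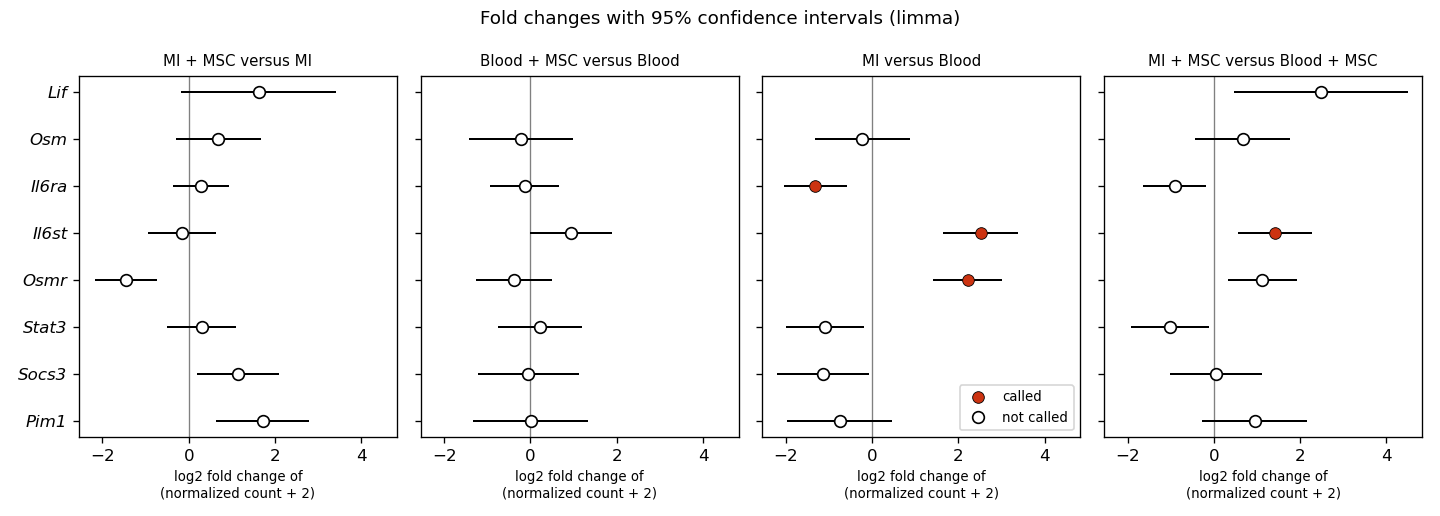
Log2 fold changes of (normalized count + 2) for the 8 tested genes in 4 comparisons, with 95% confidence intervals from limma, filled where called (adjusted p below 0.05 and a log2 fold change of 0.5 or more in size). Il6ra, Il6st and Osmr are filled for MI against Blood and Il6st for MI + MSC against Blood + MSC, and no gene is filled for MSC treatment. Lif is left out where Blood is the reference, since Blood had 0 and 2 Lif reads.

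The balance of the 2 IL-6 receptor chains can be read within a library as the ratio of Il6ra to Il6st reads. This ratio does not depend on scaling but does depend on exon length, 8.858 kb for Il6ra and 15.529 kb for Il6st. It was 0.677, 0.770 and 0.804 in MI 13, 19 and 20 and 1.13, 1.51 and 0.615 in MI + MSC 15, 17 and 18. In blood it was 16 and 7.69 in Blood 21 and 22 and 7.60 and 3.5 in Blood + MSC 23 and 24. Group means were 0.750 ± 0.0654 (SD, n = 3) in MI and 1.09 ± 0.449 (SD, n = 3) in MI + MSC, whose ranges overlapped, against 11.8 ± 5.87 (SD, n = 2) in Blood and 5.55 ± 2.90 (SD, n = 2) in Blood + MSC. Per kilobase of exon, the ratio was 1.19, 1.35 and 1.41 in MI 13, 19 and 20 and 1.99, 2.65 and 1.08 in MI + MSC 15, 17 and 18. Il6ra thus lay above Il6st in every cardiac library on that scale. The cardiac and blood ratios did not overlap on either scale. The neutrophil marker sum moved with the same contrast, since all 11 of its genes had lower values in MI than in Blood and 9 of the 11 were called. The part of cell composition in these receptor differences was not tested.

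Stat3, which carries the signal of all these receptors to the nucleus, did not separate the cardiac groups. It had 319, 429.7 and 495 normalized counts in MI 13, 19 and 20 and 550.2, 613 and 376 in MI + MSC 15, 17 and 18. It had 579 and 1314 in Blood 21 and 22 and 1178 and 877 in Blood + MSC 23 and 24. The MI and MI + MSC ranges overlapped, and the log2 fold change was 0.30 (SE 0.37, 95% interval -0.50 to 1.10, limma adjusted p = 0.794).

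Socs3 (chr11:117856905-117860898, GRCm39, minus strand), the feedback inhibitor of gp130 signalling, had 538, 905 and 1088 normalized counts in MI 13, 19 and 20 and 2048, 2418 and 1138 in MI + MSC 15, 17 and 18. Its blood values were 2063 and 1548 in Blood 21 and 22 and 2305 and 1286 in Blood + MSC 23 and 24. All MI + MSC libraries lay above all MI libraries, MI + MSC 18 only just, and the MI libraries lay below all others. Pim1 (chr17:29709581-29715086, plus strand), the survival kinase, had 336, 946 and 1038 normalized counts in MI and 2706, 2838 and 1519 in MI + MSC, in the same order of libraries. In blood it had 1682 and 811 in Blood 21 and 22 and 1305 and 1056 in Blood + MSC 23 and 24. MI + MSC 15 and 17 held more Pim1 than any other library.

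The comparison of MI + MSC with MI asks whether cells injected under the skin altered the RNA of Ly6G+ cells in the heart. It shares its MI libraries with the comparison of MI and Blood. limma called 0 of the 8 genes and 0 of all 11549 (0.0%), with 925 genes (8.01%) at an unadjusted p below 0.05, and edgeR also called 0 genes. Pim1 had a log2 fold change of 1.71 (SE 0.50, 95% interval 0.63 to 2.80), Socs3 of 1.14 (SE 0.44, 95% interval 0.18 to 2.09) and Osmr of -1.47 (SE 0.33, 95% interval -2.18 to -0.75). The limma adjusted p was 0.517, 0.602 and 0.341 in that order, and unadjusted it was 0.00513, 0.0239 and 0.000871, so that 3 of the 8 genes lay below 0.05. Lif, Socs3 and Pim1 did not overlap between the groups and were higher, as were 7.05% of all genes, and Osmr did not overlap and was lower, as were 9.6%. Il6ra had a log2 fold change of 0.28 (SE 0.30, 95% interval -0.37 to 0.93) and Il6st of -0.16 (SE 0.35, 95% interval -0.93 to 0.62), with limma adjusted p of 0.764 and 0.891. The 8 genes had a median log2 fold change of 0.49, against -0.01 over all genes tested. On the recovered reads, DESeq2 called Osmr and Pim1 (adjusted p = 0.0170 and 0.0350) among 76 genes (0.658%), and limma-voom with quality weights called Osmr (adjusted p = 0.00495) among 294 (2.55%). Without the shallow library MI 13, the log2 fold changes of Pim1, Socs3 and Osmr were 1.19, 0.84 and -1.48.

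Measured against Stat3 in the same library, Socs3 and Pim1 also stood apart. The ratio of Socs3 to Stat3 reads was 1.68, 2.11 and 2.20 in MI 13, 19 and 20 and 3.72, 3.94 and 3.02 in MI + MSC 15, 17 and 18. The ratio of Pim1 to Stat3 reads was 1.05, 2.20 and 2.10 in MI, compared with 4.92, 4.63 and 4.04 in MI + MSC. Neither ratio overlapped between the groups, and a ratio to Stat3 higher in all MI + MSC libraries was found for 3.47% of the genes tested. Group means were 2.0 ± 0.274 and 3.56 ± 0.480 for Socs3 and 1.78 ± 0.635 and 4.53 ± 0.450 for Pim1 (SD, n = 3). The ratio of Osm to Stat3 was 0.433 ± 0.0175 in MI and 0.569 ± 0.0419 in MI + MSC (SD, n = 3), again without overlap. These ratios were chosen after the values were seen and carry no test. In blood, Socs3 to Stat3 was 3.56 and 1.18 in Blood 21 and 22 and 1.96 and 1.47 in Blood + MSC 23 and 24. The spread between the 2 Blood libraries covered the Blood + MSC values.

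**Figure D3:**
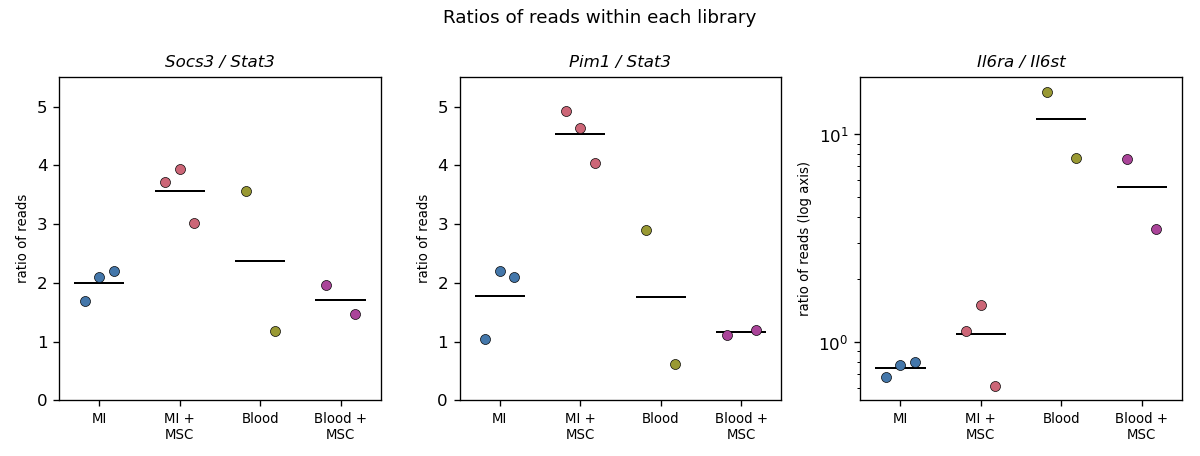
Ratios of reads within each library for Socs3 to Stat3 and Pim1 to Stat3 (linear axes from 0) and Il6ra to Il6st (log axis), by group, with points for libraries and lines at group means. The MI + MSC points of Socs3 to Stat3 (3.02 to 3.94) and Pim1 to Stat3 (4.04 to 4.92) lie above the MI points. Of the genes tested, 3.47% had a ratio to Stat3 that was higher in all MI + MSC libraries. The Il6ra to Il6st ratio is between 0.615 and 1.51 in all cardiac libraries and between 3.5 and 16 in blood.

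Endothelial RNA moved with Osmr between the cardiac groups. The 9 endothelial markers summed to 2311, 2124 and 2339 normalized counts in MI 13, 19 and 20 and to 485, 735 and 941 in MI + MSC 15, 17 and 18. In blood the sums were 742 and 71.5 in Blood 21 and 22, with 4 of the 9 markers at 0 in Blood 21, and 44.7 and 54.0 in Blood + MSC. Most of the Blood 21 sum came from Pecam1 (586) and Esam (127), with 1 read of Cdh5. That library also had the highest platelet marker sum (24128), and the part of platelet RNA in its endothelial sum was not tested. All 9 endothelial markers had a lower value in MI + MSC than in MI, with a median log2 fold change of -1.61 and 0 called by limma. Cdh5, which defines endothelial junctions, was at 478 to 513 in MI and 120 to 233 in MI + MSC. Osmr amounted to 4.73%, 4.98% and 5.24% of the endothelial sum in MI and to 7.25%, 5.62% and 4.47% in MI + MSC, and the groups overlapped on this scale. All 6 mural and all 8 cardiomyocyte markers also had lower values in MI + MSC, with medians of -0.99 and -1.43. The mural sums were 903 to 1084 in MI and 250 to 609 in MI + MSC. The cardiomyocyte sums were 8095 to 24250 and 3138 to 12602, with overlap. The lower Osmr thus went with lower marker RNA of several cell types and not of endothelium alone. Fibroblast markers were mixed, with 4 of 7 lower and sums of 1009 to 1461 in MI and 971 to 1672 in MI + MSC. Of these, Dcn (160 to 257 in MI, 93.3 to 140 in MI + MSC) and Pdgfra (49.0 to 54.6 and 25.7 to 44.7) were lower without overlap, as were 9.6% of all genes. Col1a1, Col1a2, Col3a1, Lum and Postn overlapped between the groups. Il6st was 11.3% to 16.6% of the endothelial sum in MI and 31.9% to 58.7% in MI + MSC. The part of endothelial, mural or cardiomyocyte RNA in the Osmr difference was not tested.

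**Figure D4:**
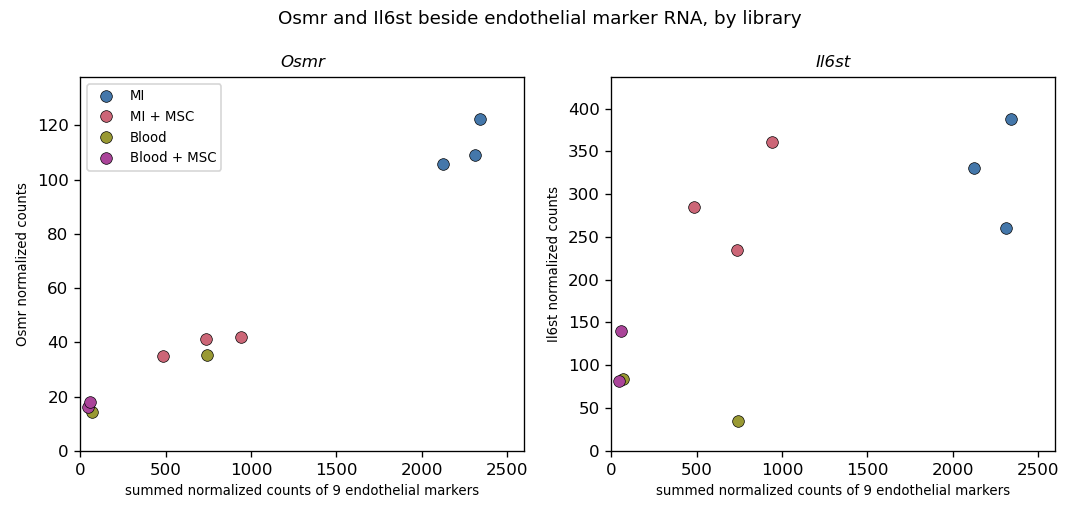
Normalized counts of Osmr and Il6st (vertical axes) against the summed normalized counts of 9 endothelial markers (horizontal axes), 1 point a library, coloured by group, all axes linear from 0. The 3 MI libraries lie at endothelial sums of 2124 to 2339 with Osmr from 106 to 122, the 3 MI + MSC libraries lie at 485 to 941 with Osmr from 35.1 to 42.0, and Il6st spans 234 to 388 in both.

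For Socs3 and Pim1, the marker lists moved differently. The 10 monocyte or macrophage markers summed to 4816, 15041 and 13218 normalized counts in MI 13, 19 and 20 and to 18158, 10896 and 19221 in MI + MSC 15, 17 and 18. The 11 neutrophil markers summed to 2496 to 7916 in MI and 2801 to 13438 in MI + MSC. Both lists overlapped between the groups, with medians of 0.71 and -0.01 on the log2 scale, and neither had a called gene. The 6 platelet markers summed to 437 to 615 in MI and 822 to 1748 in MI + MSC without overlap, with a median of -0.15, and limma called none of them. MI + MSC 18, which had the lowest Socs3, Pim1 and Osm of its group, also had the lowest neutrophil sum of its group, and MI 13 had the lowest values of MI for all 4. The part of cell composition in the Socs3 and Pim1 values was not tested.

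In blood, the comparison of Blood + MSC with Blood asks whether MSC altered the circulating Ly6G+ cells. limma called 0 of the 8 genes and 0 of all genes (0.0%), with 848 (7.34%) at an unadjusted p below 0.05, of which none was among the 8, and edgeR called 0. Il6st came nearest, at a log2 fold change of 0.94 (SE 0.43, 95% interval -0.01 to 1.89, limma adjusted p = 0.672). Without Blood 22, which leaves Blood 21 with 5 Il6st reads as the only Blood library, it was 1.54 and called (limma adjusted p = 0.0398) as 1 of 1506 called genes, and without Blood 21 it was 0.33. The median over the 8 genes was -0.02, against 0.11 over all genes. DESeq2 called 179 genes (1.55%) on the recovered reads and none of the 8. For Blood 21 the 6 platelet markers summed to 24128 normalized counts against 1051 in Blood 22 and 566 and 666 in Blood + MSC, and the part of this difference in the blood values was not tested.

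Whether MSC acted differently in heart and blood was tested as an interaction. limma called 0 of the 8 genes and 0 of all genes (0.0%), with 838 genes (7.26%) at an unadjusted p below 0.05, edgeR called 0 and DESeq2 called 18 (0.156%), none of them among the 8. The interaction was 1.70 (SE 0.78, 95% interval -0.01 to 3.42) for Pim1, 1.19 (SE 0.69) for Socs3, -1.09 (SE 0.52) for Osmr and -1.09 (SE 0.56) for Il6st on the log2 scale, with limma adjusted p of 0.630 for Pim1, Osmr and Il6st and 0.631 for Socs3. A difference in effect between the tissues was thus not detectable at this depth and number of libraries.

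Per kilobase of exon, the order of the 9 genes differed little between groups. In MI the mean levels in normalized counts per kilobase were 237 ± 78.7 for Socs3, 220.4 ± 109 for Pim1, 79.4 ± 19.8 for Osm, 41.1 ± 8.80 for Stat3, 28.0 ± 7.67 for Il6ra, 21 ± 4.11 for Il6st, 9.07 ± 0.713 for Osmr, 3.57 ± 3.25 for Il6 and 2.08 ± 1.82 for Lif (SD, n = 3). Socs3 and Pim1, Stat3 and Il6ra, Il6ra and Il6st, and Il6 and Lif were neighbours whose means lay within the spread between libraries. Within each MI library, however, Stat3 lay above Il6ra (31.6 against 19.9, 42.6 against 28.8 and 49.0 against 35.2 in MI 13, 19 and 20). Il6ra lay above Il6st in each of them as well. In MI + MSC, Pim1 came first (671 ± 207) ahead of Socs3 (525 ± 185), again within the spread, and Osmr came last (3.19 ± 0.305). In Blood and Blood + MSC the order began with Socs3 (507 ± 102 and 504 ± 202) and Pim1 (355 ± 175 and 337 ± 50.3), and Il6st came sixth at 3.86 ± 2.24 and 7.14 ± 2.70, far behind Il6ra at 68.6 ± 6.74 and 62.6 ± 9.95 (SD, n = 2).

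A wider list of 60 genes of the pathway was followed by role, of which 59 were in the table and 51 were tested. In MI + MSC against MI, limma called 0 of the 51, and the median log2 fold change was 0.36 against -0.01 over all genes. At an unadjusted p below 0.05, 9 were higher and 2 lower, where 3.26% and 4.74% of all genes were. The 20 tested STAT3 targets had a median of 0.63, with 7 higher and 1 lower in every library of the group, where 7.05% and 9.6% of all genes were. The 4 genes listed under the decay or stability of Il6 mRNA had a median of 0.99. That list includes Nfkbiz, which encodes a regulator of transcription and not of mRNA decay. The 3 tested receptors had a median of -0.83, and the kinases and signal proteins one of -0.01. Vegfa, a growth factor for vessels, had 101, 164 and 174 normalized counts in MI and 433, 349 and 308 in MI + MSC. Nfkbiz, which encodes a nuclear regulator that promotes Il6 transcription, had 336, 617 and 772 in MI, compared with 1763, 2397 and 873 in MI + MSC. DESeq2 called these 2 genes, and limma-voom called them together with Lifr, the LIF receptor chain, which was lower in MI + MSC at 73.7, 71.2 and 116 against 143, 162 and 170.4 in MI. Socs1, a relative of Socs3, had 8.40, 27.9 and 28.3 in MI, compared with 57.5, 66.6 and 31.2 in MI + MSC, with no call (limma adjusted p = 0.587). These genes were named after their values were seen.

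In MI against Blood, limma called 8 of the 51 higher and 14 lower, where 21.2% and 13.5% of all genes were. The called STAT3 targets split evenly, with 5 higher, among them Vegfa (log2 fold change 1.77, SE 0.33, limma adjusted p = 0.00259) and Pim3, a relative of Pim1 (2.20, SE 0.42, limma adjusted p = 0.00322), and 5 lower, among them Lcn2, an iron-scavenging granule protein (-3.47, SE 0.76, limma adjusted p = 0.00623), and Lrg1, a secreted glycoprotein of neutrophil granules (-3.19, SE 0.53, limma adjusted p = 0.00148). Of the kinases and signal proteins, Jak1, Jak2 and Stat5b were lower and the adaptor Gab1 higher. Of the inhibitors, Cish and Socs2 were higher in the heart and Ptpn6, Pias1 and Pias3 lower. Cish had 50.4, 36.5 and 28.3 normalized counts in MI against 0 and 3.90 in Blood, and Il10, an anti-inflammatory cytokine, had 42.0, 11.5 and 24.2 against 0 and 0.650. Csf3r, the receptor for the neutrophil growth factor G-CSF and another activator of STAT3, was lower (-3.01, SE 0.64, limma adjusted p = 0.00541) and is itself one of the 11 neutrophil markers. In MI + MSC against Blood + MSC, limma called 8 of the 51 higher and 8 lower, beside 951 higher and 676 lower of all genes (14.1% in either direction). Saa3, an acute-phase protein, was lower at -3.31 (SE 0.39, limma adjusted p = 0.000602), Lrg1 at -3.40 (SE 0.53, limma adjusted p = 0.00238), and Il10 had 44.6, 25.3 and 45.4 normalized counts in MI + MSC against 1.31 and 1.18 in Blood + MSC. In Blood + MSC against Blood, limma called 0 of the 51.

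**Figure D5:**
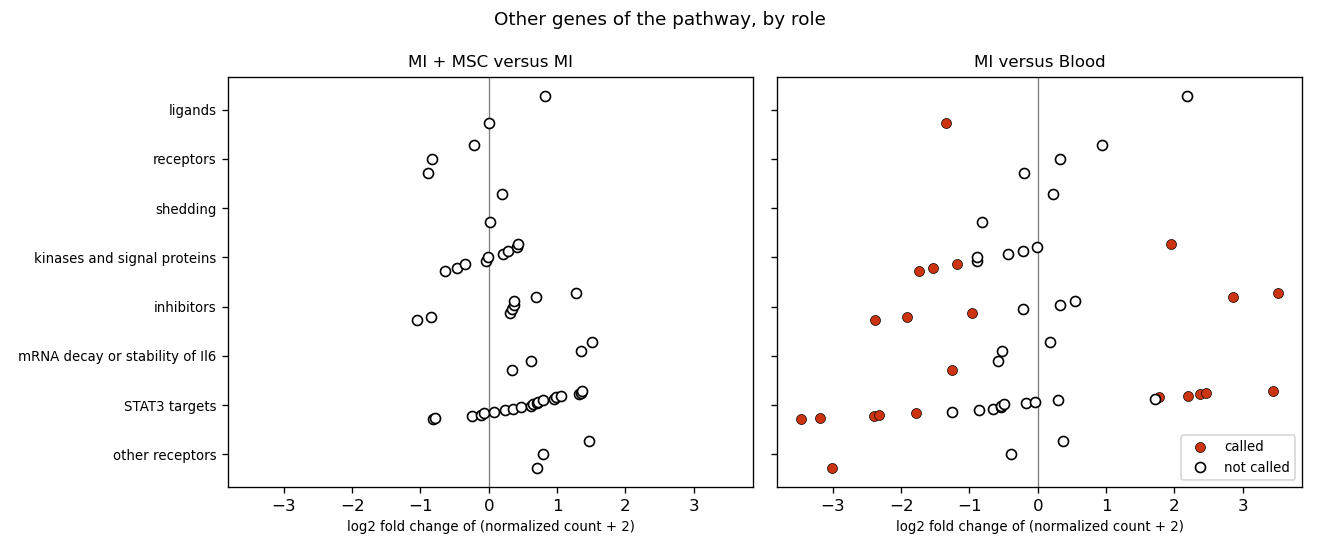
Log2 fold changes of (normalized count + 2) for the 51 tested genes of the wider list, grouped by role, in MI + MSC against MI and in MI against Blood, with 1 point a gene, filled where limma called it. No point is filled for MI + MSC against MI, and 8 points to the right of 0 and 14 to the left are filled for MI against Blood.

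For each of the 8 genes the tested genes with the most similar levels over the 10 libraries were sought, by Pearson correlation of log2(normalized count + 2), over libraries that also differ in tissue, depth and group, as a description of these libraries. For Socs3 the nearest were H3f3b (r = 0.980), Srsf5 (0.972) and Tnfaip2 (0.971), and for Pim1 they were Ninj1 (0.980), Gm56972 (0.970) and Marcksl1 (0.963). Osm was most like Coq10b (0.931), Eif1 (0.892) and Fos (0.892). Osmr was most like Tmem204 (0.974), Fermt2 (0.972) and Tcim (0.970). Il6ra followed Ankrd33b (0.996), Gm26740 (0.994) and Bst1 (0.993), Stat3 followed Sidt2 (0.994), Washc2 (0.991) and Ankrd44 (0.989), and Il6st followed Alg10 (0.993), Cx3cr1 (0.992) and Smim10l1 (0.988). Lif, at few reads, was nearest to Snhg5 (0.986), Mad2l1 (0.977) and Dusp4 (0.975).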

How the data were processed

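RNA was sequenced from Ly6G+ cells of 10 mouse samples in 4 groups as ribosome-depleted, stranded, paired-end libraries. Per the labels and methods, the authors trimmed reads with Trimmomatic, aligned them with STAR to GRCm39, removed duplicates with Picard, filtered mitochondrial reads, counted genes with featureCounts and normalized counts with DESeq2. Removing duplicates without molecular identifiers can lower the counts of highly expressed genes. The deposited values are a signal: gene counts divided by DESeq2 size factors, for 28185 genes. A second deposited table named as raw holds the same numbers (281850 of 281850 values). Dividing each library by its smallest step gave whole reads for 100% of values (tolerance 0.001), from 148594 to 8602711 reads a library. No column was left unmapped (0).

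Groups came from the sample labels. log2(normalized count + 2) of 11549 genes (minimum mean 10) was fitted over all 10 libraries with limma 3.58.1 (trended eBayes), with Benjamini-Hochberg adjustment over all genes tested in each of 5 comparisons. A gene was called at an adjusted p below 0.05 if its log2 fold change was also 0.5 or larger in size, and for the interaction by adjusted p alone. Fold changes understate those of low genes. edgeR 4.0.16, DESeq2 1.42.0 and limma-voom were run on the recovered reads, and edgeR called 0, 0, 4198, 3775 and 0 genes for MSC in heart, MSC in blood, MI against Blood, MI + MSC against Blood + MSC and the interaction. Other software was Python 3.11.15 with matplotlib 3.10.9, scipy 1.17.1, pandas 2.3.3 and numpy 2.4.6, and R 4.3.3, and the fits were tested on simulated data. GENCODE annotation matched 27906 gene IDs and gave exon lengths, and upstream sequences came from RefSeq (GRCm38.p6). Named genes were the 9 genes, called genes of the pathway list and the 3 genes most correlated with each. The genes, lists and tests were chosen with earlier results of these data known. Other settings were a pseudocount of 1 or 5, no filter, other scalings and tests, fits of fewer groups and each library left out.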

Additional observations from a re-analysis of the deposited data

How the results depend on the processing

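Of the 24 fold changes of the 8 genes given above, each recomputed under 22 other settings, 476 kept their side of the threshold, 44 passed it newly and 8 lost it, and none changed direction. Of the 16 others, 15 changed sign in some setting. For MI + MSC against MI, 0 of the 8 genes were called with any library left out (0 to 0), 2 by DESeq2 and 1 by limma-voom, and of the pathway list 2 and 3. In blood, leaving out 1 library gave 0 to 1 of the 8 and 0 to 3 of the list. For MI against Blood the 3 calls became 5 by edgeR, 6 by DESeq2, 5 without MI 13 and Blood 21 together (5 with edgeR), where 4418 and 4587 of all genes were called, and 6 by edgeR with filterByExpr (4677 of 16528 genes), and 3 to 4 with 1 library left out. The 22 calls of the list became 14 when only the groups compared were fitted, and 20 to 23 with 1 library left out. For MI + MSC against Blood + MSC the 1 call became 5 by edgeR, DESeq2, limma-voom and a fit of only the groups compared, 6 without MI 13 and Blood 21 together (6 with edgeR), where 4764 and 5357 of all genes were called, 2 by edgeR with filterByExpr (4711 of 16528 genes), and 0 to 3 with 1 library left out. The 16 calls of the list became 10 without a filter, 28 by limma-voom, 28 without MI 13 and Blood 21 together, 29 with edgeR without them, and 4 to 23 with 1 library left out. The calls over all genes shifted as well. For MI against Blood they went from 4008 to 1700 when only the groups compared were fitted. For MI + MSC against Blood + MSC they went from 1627 to 1304 of 28185 genes without a filter and to 4885 by limma-voom. The cause of these shifts was not tested. The edgeR fits without MI 13 and Blood 21 and with filterByExpr were chosen after seeing the data. The filterByExpr counts are over 9 genes and include Il6 (edgeR adjusted p = 0.0359 in MI against Blood and 0.0334 with MSC). Scaling to library size moved the median of all genes from 0.15 to 0.63 in MI against Blood and from 0.11 to 0.37 in Blood + MSC against Blood. Where leaving out a library left 1 Blood or Blood + MSC library, it was assumed to vary like the other groups. No paired analysis was possible because the library numbers differ between groups and no label links a heart library to a blood library. Depth limits Il6 and Lif most, and MI 13 and Blood 21 in all genes.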
